A study of Homo sapiens with 12 samples.

Results

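The HOX genes encode homeodomain transcription factors. Their RNA is described here in IGROV-1 cells, an established line from a human ovarian carcinoma, in which CXCR4, a chemokine receptor that binds CXCL12, was stably knocked down. The members were taken from a list of 38 genes of the HOXA, HOXB, HOXC and HOXD clusters. Of these, 28 were measured by a probe set that the array annotation used here assigns to that gene alone, out of 19775 genes measured in this way. They comprise 10 of 10 listed HOXB genes, 9 of 9 HOXC genes, 8 of 9 HOXD genes and 1 of 10 HOXA genes, HOXA2. The other 10 members, HOXA3, HOXA4, HOXA5, HOXA6, HOXA7, HOXA9, HOXA10, HOXA11, HOXA13 and HOXD3, were not analysed here. For HOXD3 the annotation gives 3 probe sets that are shared with HOXD4 and a further transcript, so no value is assigned to it.

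The samples form 4 groups of 3, each hybridised to an Affymetrix U133 Plus 2.0 expression array. Parental cells were not transfected. Mock cells carried a plasmid with a scrambled RNA and were a pool of clones. The cells named shCXCR4 (I) and shCXCR4 (II), here clone I and clone II, carried 1 of 2 short hairpin RNA (shRNA) sequences against CXCR4. They were selected as individual clones, and the labels do not say whether each line is 1 clone. All cells grew in RPMI 1640 medium with fetal calf serum, and the 3 transfected groups went through lipid transfection (Lipofectamine) and 30 days of puromycin at 4 µg/ml, which Parental cells did not. Because the Mock cells are a pool and the knockdown cells are clones, knockdown and clonal origin cannot be told apart in any comparison with either control. The labels do not say that the 3 arrays of a group came from separate cultures, so the p-values cover only how these arrays vary, and that variation may be technical.

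The deposited values are log2 intensities, 1 per probe set and array. The number of arrays limits their precision. The median over all probe sets was 4.25 to 4.39 on the 12 arrays, and Mock arrays had interquartile ranges of 3.38 to 3.43, the other groups 3.19 to 3.31. CXCR4 itself (probe set 217028_at) had a log2 level of 8.33 ± 0.08 (SD, n = 3) in Parental and 8.58 ± 0.06 (SD, n = 3) in Mock, against 7.09 ± 0.02 (SD, n = 3) in clone I and 6.62 ± 0.20 (SD, n = 3) in clone II. Its level was 0.356-fold that of Mock in clone I (limma, adjusted p = 6.11e-08) and 0.257-fold in clone II (limma, adjusted p = 4.38e-09). Of 12 markers of ovarian or Müllerian carcinoma epithelium, 10 lay above the array median on all 12 arrays, among them PAX8 and EPCAM, while MUC16 lay below it on every array. The mean log2 level of that list was 8.58 to 8.69 on the clone II arrays and 8.89 to 8.98 on the others, and its part in the differences of clone II was not tested. In the leukocyte list 1 of 4 measured markers lay above the median on all 12 arrays (CD3E), with PTPRC below it on every array, as did 3 of 7 fibroblast markers and 3 of 5 endothelial markers.

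HOX proteins bind DNA through a homeodomain, largely together with TALE cofactors of the PBX and MEIS families. In the embryo, genes toward one end of each cluster are switched on earlier and further forward in the body than those toward the other end, so that the combination of active genes marks a position along the axis. Retinoic acid signalling and CDX proteins activate the clusters in that order, Polycomb complexes keep the silent genes off, and trithorax complexes keep the active ones on. In the female tract, HOXA genes pattern the oviduct, uterus and cervix, and HOX genes of all 4 clusters have been studied in ovarian carcinoma. By RefSeq (GRCh38.p14), the HOXA cluster lies on chromosome 7, HOXB on chromosome 17, HOXC on chromosome 12 and HOXD on chromosome 2. Genes of the same number in different clusters are paralogs, and low numbers stand at the end that is active first.

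Promoter sequences of RefSeq (GRCh38.p14), running from 250 bases before to 50 bases after the annotated start, were available for 20 of the 38 members and 11 of the 28 measured ones. Among the HOXB genes this holds for HOXB1. The 4 windows given here belong to genes that the results turn on. They are HOXD8, which was lower in both knockdown clones than in both controls, HOXD4, which was lower in clone II than in Parental cells, HOXD12, whose probe set lay below the array median on every array, and HOXB1, which was higher in both clones than in Mock. The windows are chr2:176129455-176129754 (+ strand) for HOXD8, chr2:176151300-176151599 (+ strand) for HOXD4, chr2:176099545-176099844 (+ strand) for HOXD12 and chr17:48530962-48531261 (- strand) for HOXB1. Each is written 5′ to 3′ on the strand of the gene, with CG dinucleotides in capitals.
HOXD8: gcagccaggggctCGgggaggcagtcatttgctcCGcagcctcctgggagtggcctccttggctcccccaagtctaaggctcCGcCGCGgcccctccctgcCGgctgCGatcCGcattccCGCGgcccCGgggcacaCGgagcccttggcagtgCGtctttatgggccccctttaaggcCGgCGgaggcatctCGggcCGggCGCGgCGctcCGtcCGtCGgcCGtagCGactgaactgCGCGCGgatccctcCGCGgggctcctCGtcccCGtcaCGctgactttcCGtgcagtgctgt
HOXD4: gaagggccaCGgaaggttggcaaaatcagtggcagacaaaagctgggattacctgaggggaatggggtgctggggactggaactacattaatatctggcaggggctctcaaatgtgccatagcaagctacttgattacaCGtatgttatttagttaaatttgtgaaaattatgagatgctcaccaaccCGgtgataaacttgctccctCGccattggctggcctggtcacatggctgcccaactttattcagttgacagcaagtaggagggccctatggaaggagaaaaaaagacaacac
HOXD12: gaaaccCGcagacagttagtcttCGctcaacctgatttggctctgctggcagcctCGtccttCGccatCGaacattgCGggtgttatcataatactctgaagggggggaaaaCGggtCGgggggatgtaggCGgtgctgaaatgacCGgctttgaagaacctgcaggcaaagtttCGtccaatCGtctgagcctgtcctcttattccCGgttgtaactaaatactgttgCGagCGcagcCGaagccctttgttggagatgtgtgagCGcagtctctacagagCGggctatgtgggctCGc
HOXB1: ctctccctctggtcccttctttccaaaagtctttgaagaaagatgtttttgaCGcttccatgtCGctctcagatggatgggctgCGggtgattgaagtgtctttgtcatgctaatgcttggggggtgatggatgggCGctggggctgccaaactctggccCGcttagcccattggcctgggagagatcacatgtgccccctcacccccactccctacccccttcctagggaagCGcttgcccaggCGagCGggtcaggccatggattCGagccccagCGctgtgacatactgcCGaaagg

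The capitals show how unlike these windows are within 1 cluster. The HOXD8 window held 34 CG dinucleotides at 71.7% G and C, the HOXD4 window 4 at 47.3% and the HOXD12 window 19 at 54.3%. HOXB1 had 11 at 58.0%. Over the 35116 promoter windows of the same length in the table, the median was 14 CG dinucleotides and 58.7% G and C. The letters TGATNNAT, a composite half-site pattern of HOX and PBX binding, were searched on both strands and occurred once in the HOXB1 window and in none of the other 3 shown, while 7.4% of all windows hold them. The letters TATAAA, searched likewise, occurred in none of the 4, against 11.5% of all windows. Among the other measured members, TGATNNAT also occurred in the windows of HOXA2 and HOXD11. These matches describe the letters in the windows only.

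A probe set's value depends on its own sequences, so the values of different genes are not set against each other as amounts of RNA. Each gene was instead placed against the median of all probe sets on the same array. On that measure 15 of the 28 genes (53.6%) lay above the median on all 12 arrays, compared with 12090 of all 19775 genes (61.1%). The 15 were unevenly spread over the clusters. In the HOXB cluster 8 of 10 qualified, namely the unbroken run from HOXB2 to HOXB9. HOXB1 and HOXB13, which stand at the 2 ends of the cluster, did so on 11 and 3 arrays. In the HOXC cluster 3 of 9 qualified (HOXC5, HOXC8 and HOXC11), and HOXC4 did so on 8 arrays. In the HOXD cluster the 4 were HOXD1, HOXD4, HOXD8 and HOXD9. HOXA2, a gene of the hindbrain and second branchial arch, was below the median on all 12.

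By number along the cluster, 3 of the 5 measured genes of paralog groups 1 to 3, 9 of the 11 of groups 4 to 8 and 3 of the 12 of groups 9 to 13 lay above the array median on all 12 arrays. The 10 genes above it on no array were HOXA2, HOXC6, HOXC9, HOXC10, HOXC12, HOXC13, HOXD10, HOXD11, HOXD12 and HOXD13. HOXD10 to HOXD13 are known for patterning the limbs, digits and external genitalia, and their levels ranged over all arrays from 2.09 in HOXD12 to 4.15 in HOXD13. HOXC13, known from hair and nail, had levels of 2.52 to 3.13. The groups hardly differed in these counts. All 3 arrays were above the median for 16 genes in Parental, 15 in Mock, 16 in clone I and 17 in clone II. When the median over the 19775 genes was used instead of that over probe sets, 9 of the 28 genes qualified, and this choice therefore sets how many of the genes near the median are counted. The share of all genes above that higher cut-off is not given here, so the drop is not read as particular to HOX genes.

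**Figure D1:**
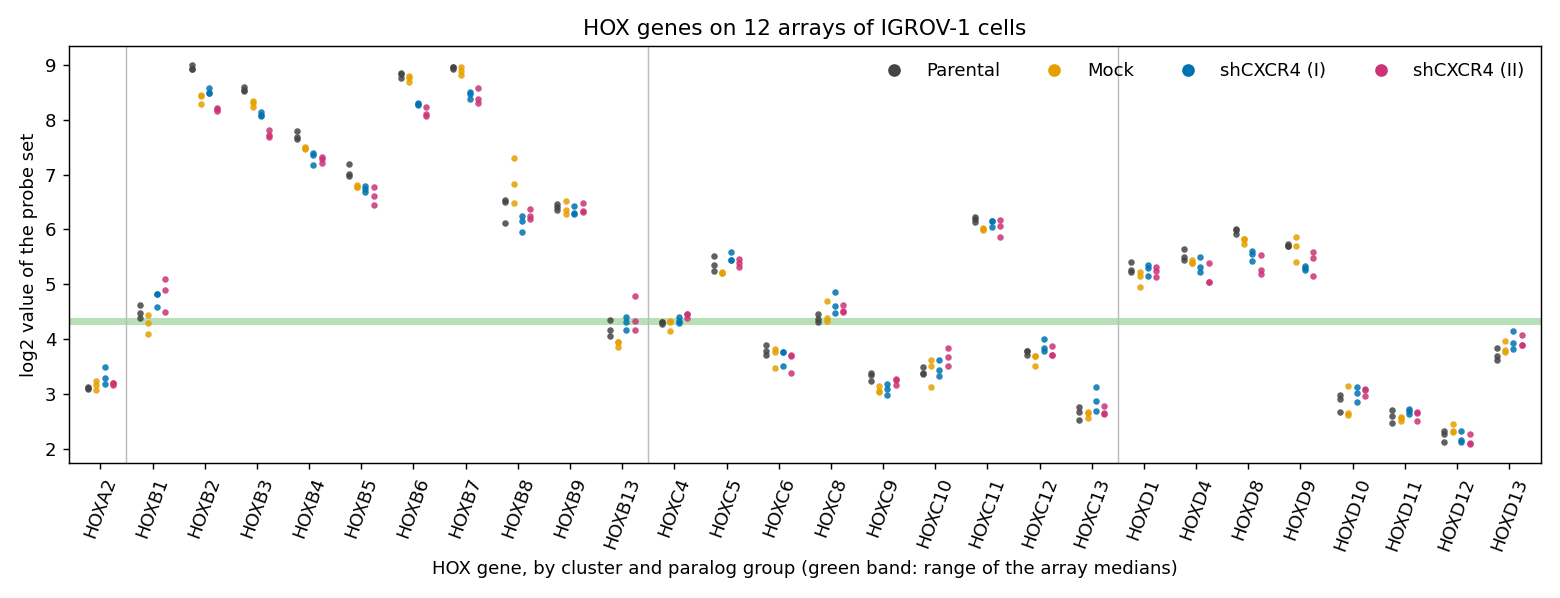
Log2 value of each measured HOX gene (vertical axis) on each of the 12 arrays, ordered along the horizontal axis by cluster and paralog group, with points coloured by group and a green band for the range of the array medians, 4.25 to 4.39. HOXB2 to HOXB9 lie above the band on every array, whereas HOXC12, HOXC13 and HOXD10 to HOXD13 lie below it.

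Differences were called with limma at a Benjamini-Hochberg adjusted p under 0.05 over all 19775 genes. Of the 28 HOX genes, 15 were called in at least 1 of the 6 comparisons and 13 in none. That is 53.6%, beside 43.7% of all genes and 63.8% of the 8348 genes with a mean log2 level of at least 6, called bright genes below. The comparisons share arrays, so their counts are not independent of each other. In bulk RNA, fewer cells that express a gene and less RNA per cell cannot be told apart. All differences below are on the log2 scale, where 1 is a doubling. Depending on the comparison, the arrays of the 2 groups did not overlap for 23.7% to 41.6% of all genes. This held for 37.2% to 60.0% of the bright genes and 10.7% to 53.6% of the HOX genes. Lack of overlap is therefore given below as a description only.

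Against Parental cells, every call among the HOX genes was downward. Clone I had 9 HOX genes lower and 0 higher, which is 32.1% of the 28. The background over all genes was 16.8% called in either direction, 8.25% higher and 8.56% lower. Clone II had 8 lower and 0 higher (28.6%), against 17.0% of all genes called, 7.47% higher and 9.48% lower. In all, 7 of the 28 were lower in both clones: HOXB2, HOXB3, HOXB4, HOXB5, HOXB6, HOXB7 and HOXD8. This is 25.0% of the members, beside 5.51% of all genes and 10.3% of the bright genes. The median difference of the 28 was -0.06 in clone I and -0.08 in clone II, beside 0.02 over all genes in each.

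Most of these calls fell in HOXB. Of the 10 HOXB genes, 6 were lower than Parental in each clone, with median differences of -0.37 and -0.45. HOXC had 1 call in clone I and 0 in clone II out of 9, and HOXD had 2 in each clone out of 8. Taken over the run from HOXB2 to HOXB9, a subset formed after the levels were seen, the median difference was -0.42 in clone I and -0.50 in clone II, with all 8 below 0. Bright genes are called more often in these data. Among the bright genes, 29.7% were called in clone I and 27.7% in clone II against Parental, with 16.4% and 17.2% of them lower. Under quantile normalization and under centring of each array on its median, the 8 genes again all had differences below 0 and 6 of them were called lower in each clone.

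**Figure D2:**
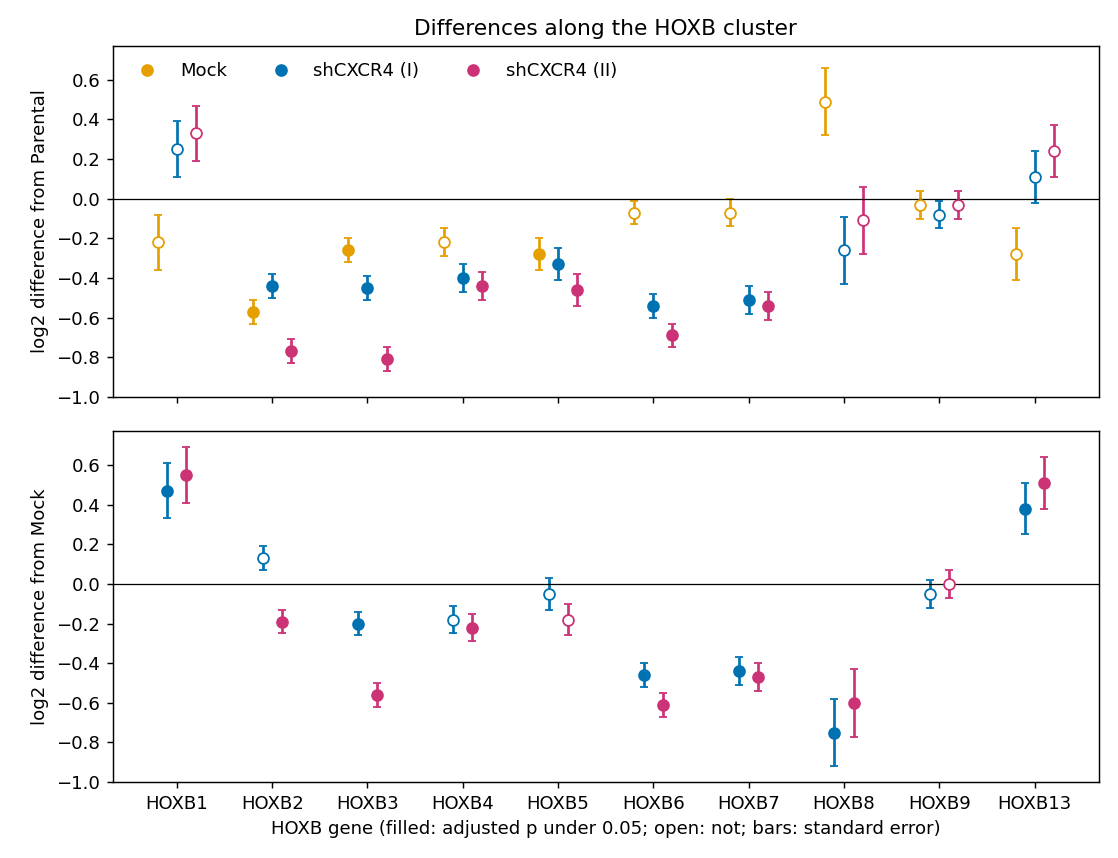
Log2 difference (vertical axis) of each HOXB gene along the cluster (horizontal axis) from Parental in the upper panel and from Mock in the lower panel, for Mock, shCXCR4 (I) and shCXCR4 (II), with bars for limma's standard error and filled points for an adjusted p under 0.05. HOXB2 to HOXB7 lie below Parental in both clones, HOXB9 lies near 0 throughout, and HOXB1 and HOXB13 lie above Mock.

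Mock cells had 4 HOX genes lower than Parental and 0 higher (14.3%), close to the 15.0% of all genes called in either direction, with 9.78% higher and 5.23% lower. The 4 were HOXB2, HOXB3, HOXB5 and HOXC9. The count fell to 2 without Parental replicate 3 and to 2 without Mock replicate 3. The median difference of the 28 was -0.09, beside 0.00 over all genes. With arrays centred on their medians, 1 HOX gene was higher and 2 were lower. HOXB3 was called lower in Mock on the probe set that stands for it, and the mean of its 2 probe sets gave 0.05 (limma, adjusted p = 0.724). HOXB6 and HOXB7 differed from Parental in Mock by -0.07 each and were not called there.

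Against Mock the calls ran in both directions. Clone I had 6 HOX genes lower and 4 higher (35.7% in all), with a background of 23.6% called, 9.97% higher and 13.6% lower. The count of 10 fell to 4 without clone I replicate 3, to 5 without Mock replicate 2, and to 6 without Mock replicate 3 or clone I replicate 2. Clone II had 7 lower and 2 higher (32.1%), with a background of 26.1% called, 11.0% higher and 15.1% lower. In all, 5 of the 28 were lower than Mock in both clones: HOXB3, HOXB6, HOXB7, HOXB8 and HOXD8. That share of 17.9% stands beside 9.20% of all genes and 18.1% of the bright genes. Among bright genes, 37.2% were called against Mock in clone I and 37.1% in clone II, with 26.9% and 29.1% of them lower. HOXB1 and HOXB13 were higher in both, as were 5.59% of all genes. With quantile normalization the counts were 4 lower and 3 higher in clone I and 6 lower and 2 higher in clone II, and with centring 8 lower and 1 higher, and 10 lower and 2 higher. The median difference of the 28 was 0.07 in clone I and 0.04 in clone II, beside 0.02 over all genes in each.

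The 2 clones differed from each other in 2 HOX genes (7.14%), beside 7.15% of all genes called, 4.66% higher and 2.48% lower in clone I. Both were higher in clone I. They were HOXB2 and HOXB3, neighbours at the early end of the cluster. For the other 26 measured HOX genes the difference between the clones was not called, and their differences ran from -0.21 to 0.21.

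HOXB2 takes part in hindbrain and facial nerve patterning. Its log2 level (205453_at) was 8.93, 9.00 and 8.93 in Parental, 8.43, 8.45 and 8.28 in Mock, 8.49, 8.49 and 8.57 in clone I, and 8.19, 8.16 and 8.22 in clone II. No 2 groups overlapped, and Parental stood highest. Mock was lower than Parental, at -0.57 ± 0.06 (SE; limma, adjusted p = 2.79e-05), clone I at -0.44 ± 0.06 (SE; adjusted p = 0.000204) and clone II at -0.77 ± 0.06 (SE; adjusted p = 1.46e-06), the last a 0.588-fold level. Against Mock, clone I was at 0.13 (limma, adjusted p = 0.130) and clone II at -0.19 (limma, adjusted p = 0.0321). The call in clone II against Mock was lost under quantile normalization (limma, adjusted p = 0.463), and also without Mock replicate 1 or 2, or clone II replicate 1 or 2. HOXB2 thus separated Parental cells from all 3 transfected groups, and its difference between clone I and clone II was 0.33 (limma, adjusted p = 0.00523).

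HOXB3, the next gene, also patterns the hindbrain and pharyngeal region. Its level (228904_at) was 8.55, 8.59 and 8.52 in Parental, 8.35, 8.24 and 8.30 in Mock, 8.14, 8.07 and 8.09 in clone I, and 7.69, 7.72 and 7.81 in clone II. The groups formed 4 steps without overlap, from Parental down to clone II. Mock differed from Parental by -0.26 ± 0.06 (SE; limma, adjusted p = 0.00932), and clone II differed from Mock by -0.56 ± 0.06 (SE; limma, adjusted p = 1.78e-05). Clone II was at 0.569-fold of Parental (limma, adjusted p = 5.60e-07), and clone I at 0.730-fold (limma, adjusted p = 0.000107). The smaller difference of clone I from Mock, -0.20 (limma, adjusted p = 0.0266), was lost under quantile normalization (adjusted p = 0.284), and also without Mock replicate 1 or 3 or clone I replicate 2 or 3. A second HOXB3 probe set did not show these steps. On 208414_s_at, which lay near the array median with a mean of 4.48, clone I differed from Parental by 0.14 and clone II by 0.22, neither of them called, and Mock differed from Parental by 0.35 (limma over all probe sets, adjusted p = 0.0844). With the mean of both probe sets the difference of Mock from Parental was 0.05 (limma, adjusted p = 0.724), its call lost and its sign turned, and the call of clone I against Parental was lost (limma, adjusted p = 0.165).

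HOXB4, known for expanding blood stem cells when overexpressed, had levels of 7.80, 7.64 and 7.68 in Parental, 7.46, 7.51 and 7.49 in Mock, 7.17, 7.39 and 7.35 in clone I, and 7.28, 7.32 and 7.21 in clone II. Parental stood above all other arrays. The 2 clones overlapped each other and lay below Mock. The difference from Parental was -0.40 ± 0.07 in clone I (SE; limma, adjusted p = 0.00117) and -0.44 ± 0.07 in clone II (SE; limma, adjusted p = 0.000724). Mock differed from Parental by -0.22 (limma, adjusted p = 0.0511). Clone II differed from Mock by -0.22 (limma, adjusted p = 0.0375), a call that was lost under quantile normalization (adjusted p = 0.492) and without any 1 of the Mock or clone II arrays.

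HOXB5 levels (205600_x_at) were 7.02, 6.98 and 7.19 in Parental, 6.77, 6.81 and 6.77 in Mock, 6.73, 6.79 and 6.69 in clone I, and 6.77, 6.44 and 6.61 in clone II. On this probe set the 3 transfected groups lay together below Parental. Clone I differed from Parental by -0.33 ± 0.08 (SE; limma, adjusted p = 0.0144) and clone II at -0.46 ± 0.08 (SE; limma, adjusted p = 0.00186), while the differences from Mock, -0.05 and -0.18, were not called. The call in clone I was lost without Parental replicate 3 (limma, adjusted p = 0.0755) or clone I replicate 3 (limma, adjusted p = 0.0588). The call of Mock against Parental, at -0.28 (limma, adjusted p = 0.0369), was lost when Parental replicate 1 or 3, any 1 Mock array or clone I replicate 1 was left out, with an adjusted p as high as 0.154, and with centred arrays. On the second HOXB5 probe set, 205601_s_at, Mock differed from Parental by -0.07 and clone I by -0.24 (limma over all probe sets, adjusted p = 0.0802), neither called. Clone II differed there from Parental by -0.34 (limma over all probe sets, adjusted p = 0.0140) and from Mock by -0.27 (limma over all probe sets, adjusted p = 0.0330).

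HOXB6 and HOXB7 differed by -0.07 each between Mock and Parental, which was not called, and were lower than both controls in both clones. HOXB6 is expressed in the embryonic mesoderm and in early blood cells. Its level (205366_s_at) was 8.84, 8.85 and 8.77 in Parental, 8.68, 8.77 and 8.80 in Mock, 8.26, 8.30 and 8.29 in clone I, and 8.10, 8.07 and 8.24 in clone II. Both controls overlapped, and every clone array lay below every control array. Against Mock, clone I was lower, at -0.46 ± 0.06 (SE; limma, adjusted p = 0.000129) and clone II at -0.61 ± 0.06 (SE; limma, adjusted p = 1.32e-05), which are 0.725-fold and 0.654-fold levels. A second HOXB6 probe set, 205365_at with a mean of 5.08, had differences from Mock of -0.26 and -0.27 that were not called, and all HOXB6 calls were lost where the _x_at and _s_at classes of probe set were excluded.

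HOXB7 has been found raised in several carcinomas, where it can drive growth factor expression. Its level (204779_s_at) was 8.97, 8.97 and 8.93 in Parental, 8.82, 8.88 and 8.97 in Mock, 8.47, 8.50 and 8.37 in clone I, and 8.30, 8.38 and 8.57 in clone II. As for HOXB6, both controls overlapped and no clone array reached a control array. Unlike those of HOXB6, the clones overlapped each other. The difference from Mock was -0.44 ± 0.07 in clone I (SE; limma, adjusted p = 0.000711) and -0.47 ± 0.07 in clone II (SE; limma, adjusted p = 0.000505). From Parental it was -0.51 and -0.54. Of the other 2 HOXB7 probe sets, 216973_s_at differed from Mock by -0.40 (limma over all probe sets, adjusted p = 0.00341) and -0.39 (adjusted p = 0.00478). The third, 204778_x_at, differed by -0.18 and -0.07, neither called.

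HOXB8, which blocks myeloid differentiation when forced on, was set apart by its spread in Mock. Its level (229667_s_at) was 6.53, 6.50 and 6.11 in Parental, 6.48, 6.82 and 7.30 in Mock, 5.95, 6.16 and 6.25 in clone I, and 6.25, 6.19 and 6.37 in clone II. The Mock arrays spanned more than any other group, and the clones lay below them but within or near the Parental values. Clone I was lower than Mock, at -0.75 ± 0.17 (SE; limma, adjusted p = 0.00599) and clone II at -0.60 ± 0.17 (SE; limma, adjusted p = 0.0198). Against Parental the differences were -0.26 and -0.11, neither called. The call in clone II was lost without Mock replicate 3 (limma, adjusted p = 0.0724) and without clone II replicate 1 or 2. The other HOXB8 probe set, 221278_at, lay below the array median on all arrays and differed from Mock by -0.19 and 0.09, neither called.

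HOXB9, next along the cluster, was the flattest member of the run. Its 12 levels lay between 6.29 and 6.51. Its difference from Mock had a 95% confidence interval of -0.21 to 0.11 in clone I and -0.16 to 0.16 in clone II. From Parental the interval was -0.24 to 0.08 in clone I and -0.19 to 0.13 in clone II, so a fall as large as the estimate of -0.51 for HOXB7 in clone I lies outside it.

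**Figure D3:**
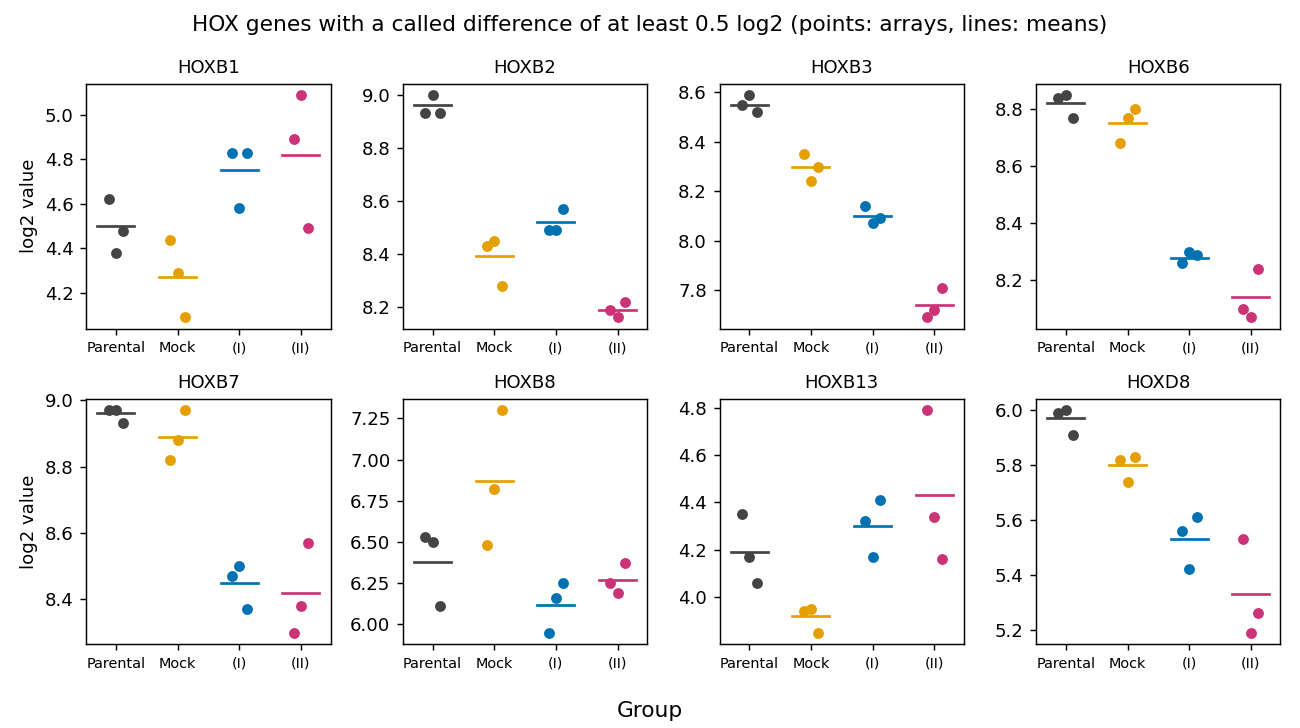
Log2 value (vertical axis, a separate scale in each panel) in the 4 groups (horizontal axis) for the 8 HOX genes with a called difference of at least 0.5, with points for arrays and lines for group means. HOXB2 and HOXB3, on the probe sets shown, already differ between Parental and Mock, whereas HOXB6 and HOXB7 separate the 2 clones from both controls.

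HOXB1 and HOXB13 went the other way against Mock. HOXB1, a gene of the hindbrain that maintains its own expression together with PBX proteins, had levels (208224_at) of 4.62, 4.38 and 4.48 in Parental, 4.44, 4.29 and 4.09 in Mock, 4.83, 4.58 and 4.83 in clone I, and 4.89, 5.09 and 4.49 in clone II. The clones lay above Mock without overlap and overlapped Parental. Clone I was higher than Mock by 0.47 ± 0.14 (SE; limma, adjusted p = 0.0228) and clone II by 0.55 ± 0.14 (SE; limma, adjusted p = 0.0104), while the differences from Parental, 0.25 and 0.33, were not called. The call in clone I was lost without Mock replicate 2 or 3 or clone I replicate 1 or 3, with adjusted p of 0.0551 to 0.0914. The second HOXB1 probe set, 243811_at, lay below the array median on every array. It differed from Mock by 0.11 in clone I (limma over all probe sets, adjusted p = 0.400) and 0.18 in clone II (adjusted p = 0.133), neither called. HOXB13, a marker of prostate and distal gut, had levels (230105_at) of 4.35, 4.17 and 4.06 in Parental, 3.94, 3.95 and 3.85 in Mock, 4.32, 4.17 and 4.41 in clone I, and 4.79, 4.34 and 4.16 in clone II. Here too Mock was lowest and the clones overlapped Parental. The difference from Mock was 0.38 ± 0.13 in clone I (SE; limma, adjusted p = 0.0489) and 0.51 ± 0.13 in clone II (SE; limma, adjusted p = 0.0119). The call in clone I was lost without any 1 of the Mock arrays, without clone I replicate 1 or 3, Parental replicate 2 or 3 or clone II replicate 2, and under both scalings. The second HOXB13 probe set, 209844_at, had the opposite sign, with differences from Mock of -0.24 (adjusted p = 0.0662) and -0.33 (limma over all probe sets, adjusted p = 0.0135).

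Both genes lie near the array median. The Mock arrays had the widest interquartile range and the lowest medians (4.25 to 4.28), and the part of this in the rises against Mock was not tested.

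**Figure D4:**
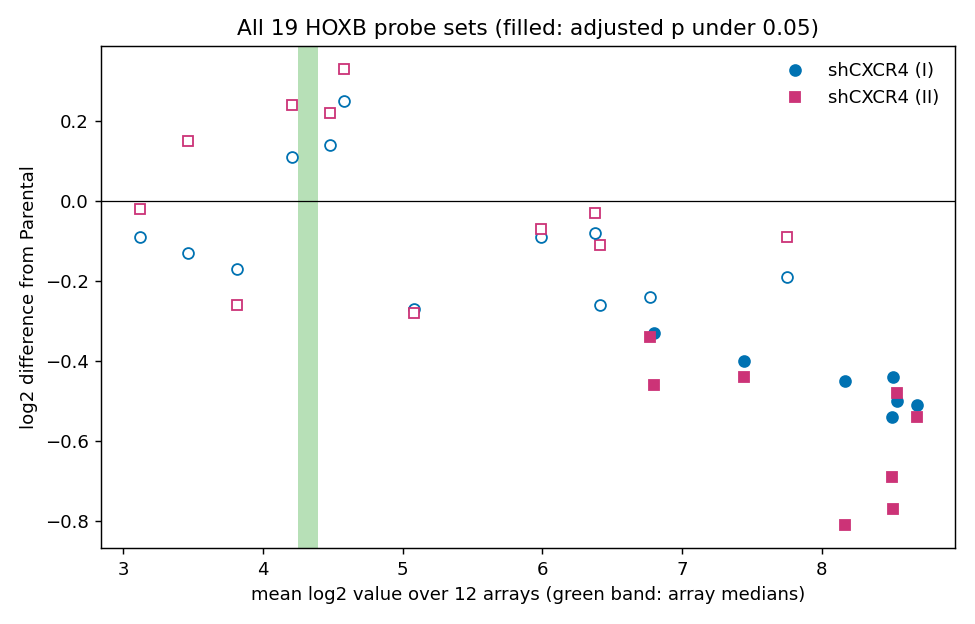
Log2 difference from Parental (vertical axis) against the mean log2 value over 12 arrays (horizontal axis) for all 19 HOXB probe sets, with circles for shCXCR4 (I), squares for shCXCR4 (II), filled symbols for an adjusted p under 0.05 over all probe sets and a green band for the array medians. The called falls sit on probe sets with values well above the band. Others above it were not called, among them 204778_x_at of HOXB7 (mean 7.75), 205365_at of HOXB6 (mean 5.08) and those standing for HOXB8 and HOXB9. The second probe sets of HOXB3, near the band, and HOXB8, below it, were not called either.

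In the HOXD cluster, HOXD8 followed the pattern of the falling HOXB genes. HOXD8 is a central gene of its cluster. Its levels (231906_at) were 5.99, 6.00 and 5.91 in Parental, 5.82, 5.74 and 5.83 in Mock, 5.56, 5.42 and 5.61 in clone I, and 5.53, 5.19 and 5.26 in clone II. Every clone array lay below every control array, and the 2 clones overlapped. Clone II was lower than Mock, at -0.47 ± 0.08 (SE; limma, adjusted p = 0.00136) and than Parental, at -0.64 ± 0.08 (SE; limma, adjusted p = 0.000140). Clone I was lower than Parental, at -0.44 ± 0.08 (SE; limma, adjusted p = 0.00238). Its difference from Mock, -0.27 (limma, adjusted p = 0.0341), was lost under quantile normalization (adjusted p = 0.0529), without any 1 Mock array and without clone I replicate 1 or 2. With HOXB3, HOXB6 and HOXB7, HOXD8 was 1 of 4 genes called lower than both controls in both clones, which is 14.3% of the members, beside 3.10% of all genes and 6.10% of the bright genes. Its promoter window has the most CG dinucleotides of the 4 printed above, 34. The window of HOXD1, a gene of the same cluster called in no comparison, held 36.

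HOXD9, the neighbour of HOXD8, had levels (205604_at) of 5.70, 5.70 and 5.73 in Parental, 5.70, 5.86 and 5.40 in Mock, 5.29, 5.34 and 5.27 in clone I, and 5.59, 5.16 and 5.48 in clone II. Clone I lay below both controls, and clone II overlapped Mock. Clone I differed from Mock by -0.35 (limma, adjusted p = 0.0394) and from Parental by -0.41 (limma, adjusted p = 0.0248). Both calls were lost without any 1 of the Parental arrays or of the clone I arrays, and the call against Mock also without Mock replicate 1 or 2. The second HOXD9 probe set, 205605_at, lay below the array median on every array and had the opposite sign, with differences in clone I of 0.05 from Mock and 0.10 from Parental that were not called. With the mean of both probe sets both calls were lost, at -0.15 (limma, adjusted p = 0.203) and -0.16 (limma, adjusted p = 0.237). HOXD4 was lower than Parental in clone II, at -0.37 (limma, adjusted p = 0.0173), with levels of 5.05, 5.38 and 5.04 against 5.49, 5.64 and 5.45. That call was lost without Parental replicate 2 or clone II replicate 1 or 3. The second HOXD4 probe set, 1552337_s_at, lay above the array median on every array. There clone II differed from Parental by -0.19 (limma over all probe sets, adjusted p = 0.331), which was not called. HOXD1, HOXD10, HOXD11, HOXD12 and HOXD13 were called in no comparison.

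In the HOXC cluster 3 of 9 genes had a call in at least 1 of the 6 comparisons, beside 43.7% of all genes. HOXC5 was higher than Mock in clone I by 0.28 ± 0.07 (SE; limma, adjusted p = 0.0148), with levels of 5.45, 5.45 and 5.58 against 5.22, 5.21 and 5.21. The call was lost without clone I replicate 3 (adjusted p = 0.0707) and with arrays centred on their medians (limma, adjusted p = 0.0632). HOXC12, at 0.24 in the same comparison (limma, adjusted p = 0.0352), and HOXC9, at -0.24 in Mock (limma, adjusted p = 0.0252) and in clone I (limma, adjusted p = 0.0263) against Parental, lay below the array median on every array. The HOXC12 call was lost under both scalings and without Mock replicate 2 or clone I replicate 2 or 3. For HOXC9 the calls were lost without Parental replicate 2 or 3, without Mock replicate 1 or 3 and without clone I replicate 1 or 3, in the comparisons that use those arrays, and the call in Mock also under both scalings. HOXC11, a spinal and hindlimb gene, stayed within 5.87 to 6.23 over all arrays and was called in none.

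Genes that work with or on the HOX clusters were taken from lists. Of 10 measured TALE cofactors, 8 lay above the array median on all 12 arrays. Against Mock 1 was higher and 2 were lower in each clone, and the medians were 0.03 and 0.12. Over all genes 23.6% were called in clone I and 26.1% in clone II. MEIS1, a major partner of HOX proteins in blood cells and named after its values were seen, had group means of 2.56 to 2.69 and lay below the median on every array. MEIS2, named after its values were seen, was well above it and differed from Mock by -0.47 in clone I (limma, adjusted p = 0.000184) and at -0.27 in clone II (limma, adjusted p = 0.00985).

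All 23 measured Polycomb genes lay above the median on all 12 arrays. Against Mock, 10 were lower and 1 higher in clone I and 7 lower and 0 higher in clone II, where quantile normalization gave 8 lower and 1 higher, and 2 lower and 2 higher, and centring 12 lower and 0 higher, and 10 lower and 0 higher. Against Mock, 13.6% of all genes and 26.9% of the bright genes were lower in clone I, and 15.1% and 29.1% in clone II. AEBP2, an accessory protein of Polycomb repressive complex 2, was lower than Mock, at -0.46 ± 0.11 in clone I (SE; limma, adjusted p = 0.00971) and at -0.65 ± 0.11 in clone II (SE; limma, adjusted p = 0.00105). JARID2, another such accessory protein, differed by -0.36 (limma, adjusted p = 0.00481) and -0.55 (limma, adjusted p = 0.000278), but a probe set outside the _x_at and _s_at classes gave -0.02 and 0.02. The AEBP2 call in clone I was lost with the mean of its probe sets (limma, adjusted p = 0.379). EZH2, the methyltransferase of that complex and named after its values were seen, was lower in clone I, at -0.41 (limma, adjusted p = 0.00159) and not called in clone II, at -0.20.

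Of the 13 trithorax and demethylase genes, which act in the opposite direction, 6 were lower and 1 higher than Mock in clone I and 4 lower and 0 higher in clone II, beside the same shares of 13.6% and 26.9%, and of 15.1% and 29.1%. With centring these counts were 10 and 0, and 6 and 0. With quantile normalization they were 4 and 1, and 2 and 1, and the median in clone II turned from -0.12 to 0.01. PSIP1, a chromatin reader that tethers MLL complexes, was lower than Mock, at -0.69 ± 0.05 in clone I (SE; limma, adjusted p = 1.35e-06) and at -0.36 ± 0.05 in clone II (SE; limma, adjusted p = 0.000398). The methyltransferase KMT2C was higher in Mock than in Parental, by 0.52 (limma, adjusted p = 0.00864), and lower than Mock in the clones, at -0.40 (limma, adjusted p = 0.0256) and -0.48 (limma, adjusted p = 0.00995). Its call in clone I was lost without Mock replicate 2 or 3 or clone I replicate 2 or 3. KMT2D was higher in Mock than in Parental by 0.51 (limma, adjusted p = 0.0133), a call lost without Parental replicate 1. With the mean of each gene's probe sets both calls of Mock against Parental were lost, KMT2C at 0.15 (limma, adjusted p = 0.125) and KMT2D at 0.21 (limma, adjusted p = 0.0632).

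The retinoic acid and CDX list held the largest differences of these lists. Of 17 measured genes, 5 were higher and 4 lower than Mock in clone I, and 4 higher and 5 lower in clone II, beside 23.6% and 26.1% of all genes called. ALDH1A1, which makes retinoic acid, had group means of 10.90, 9.60, 8.99 and 8.75 in Parental, Mock, clone I and clone II, and differed from Parental by -1.91 and -2.15 in the clones. ALDH1A3, an enzyme of the same step, ran the other way, with means of 4.49, 5.08, 6.53 and 6.47. Its difference from Mock was 1.45 ± 0.11 in clone I (SE; limma, adjusted p = 1.18e-06) and 1.38 ± 0.11 in clone II (SE; limma, adjusted p = 1.80e-06). CRABP2, which carries retinoic acid to its nuclear receptor, was higher than Mock by 0.38 and 0.42 and than Parental by 1.18 and 1.22, and Mock was higher than Parental by 0.80.

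RDH10, which makes retinal, was lower than Mock, at -0.69 ± 0.07 in clone I (SE; limma, adjusted p = 1.57e-05) and at -1.19 ± 0.07 in clone II (SE; limma, adjusted p = 8.75e-08). DHRS3, which turns retinal back into retinol, split the clones. Its means were 6.90 in Parental, 6.37 in Mock, 6.82 in clone I and 5.68 in clone II, and clone I was higher than clone II by 1.14 ± 0.11 (SE; limma, adjusted p = 2.40e-05). No relation of these enzymes to the HOX values was tested.

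Of the 11 measured noncoding RNAs and neighbours of the clusters, 3 lay above the array median on all 12 arrays. Against Mock 0 were called in clone I and 1 was lower in clone II, beside 23.6% and 26.1% of all genes called. That one was HOXB-AS3, which is transcribed within the HOXB cluster, with a difference of -0.51 (limma, adjusted p = 0.00310). It was also lower than Parental in clone II, at -0.65 (limma, adjusted p = 0.000609), and higher in clone I than in clone II, by 0.39 (limma, adjusted p = 0.0356). Its probe set is of the _s_at class, and the other HOXB-AS3 values, without that class, were 0.19, 0.09 and -0.14. The call between the clones was also lost without Parental replicate 1, clone II replicate 1 or any 1 clone I array. HOXB-AS1, which lies within the same cluster and is named after its values were seen, was lower than Parental, at -0.33 in clone I (limma, adjusted p = 0.0315) and at -0.36 in clone II (limma, adjusted p = 0.0208). Its group means were 4.57 in Parental, 4.30 in Mock, 4.24 in clone I and 4.21 in clone II, and neither clone was called against Mock. It lay above the array median on 5 of the 12 arrays.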

How the data were processed

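RNA of IGROV-1 cells was measured on 12 arrays in 4 groups of 3, mapped by their titles. The authors deposited log2 values per probe set, made with R 2.6.0 and RMA per the submitters' processing notes. For the background step, the chip definition and filters, details were not given in the sources used here. In all, the annotation names 54675 probe sets, 41097 of them with 1 symbol, 1801 with several and 11777 with none, and 41043 matched the RefSeq gene table by Entrez number. Where several single-symbol probe sets named a gene, that of highest mean stood for it. No values were renormalized.

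The test was limma (version 3.58.1, R 4.3.3), with lmFit and eBayes on a model of group means for the 12 arrays (residual degrees of freedom 8, prior 5.19), p-values adjusted by Benjamini-Hochberg over 19775 genes and called under 0.05. Errors are SD or limma's standard error (SE). Single probe sets were adjusted over all single-symbol probe sets. The test was checked on simulated data.

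The HOX members, lists and tests were chosen with earlier results of these data known, so no count is independent support. Every array is given for HOX genes called with a difference of at least 0.5 in any comparison, and for HOXB4, HOXB5 and HOXD9 besides, as neighbours of these. List genes are named where called at 0.5 or more in a comparison with Mock, and MEIS1, MEIS2, EZH2 and HOXB-AS1 outside that rule. Alternatives were the choice of probe set, dim filters, quantile normalization, centring, variance settings, the groups fitted, a replicate block, a stricter p and each array left out. Figures used Python 3.11.15 and matplotlib 3.10.9.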

Additional observations from a re-analysis of the deposited data

Results flagged for a closer look

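The change against Mock differed between the 2 knockdown clones for HOXB2 and HOXB3, as tested by the contrast of clone I with clone II over 3 arrays each. For HOXB2 the clone I change minus the clone II change was 0.33 on the log2 scale (limma, adjusted p = 0.00523), and all 3 arrays of clone I were higher than all 3 of clone II. For HOXB3 it was 0.36 (limma, adjusted p = 0.00232), again without overlap, and with the mean of the HOXB3 probe sets the adjusted p was 0.307. Since the lines were selected as individual clones, the shRNA sequence and the clone cannot be told apart here.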

How the results depend on the processing

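Counts of called HOX genes are given in the order Mock against Parental, clone I against Mock, clone II against Mock, clone I against clone II, clone I against Parental and clone II against Parental, where the reported counts are 4, 10, 9, 2, 9 and 8. At an adjusted p under 0.01 the first 3 were 2, 3 and 4. Without probe sets named _x_at or _s_at, clone I against Mock gave 6 and clone II against Parental 5. In that run HOXB5, HOXB7, HOXC6 and HOXC13 were not tested, as they have no other probe set. Only 9 HOX genes have a mean log2 of at least 6, and with genes of that level alone clone I against Mock gave 6. Of these 9, HOXB3, HOXB6, HOXB7 and HOXB8 were called in the reported run. Averaging each gene's probe sets, the clones differed in 1. Leaving out 1 array gave 2 to 5, 4 to 10, 7 to 9, 2 to 3, 6 to 9 and 7 to 9. The share of all genes called in each run is not given here, so these changes are not read as particular to HOX genes. The number of HOX genes above the array median on all arrays was 9 with the median over genes, given without the share of all genes. Of the 42 HOX calls, 16 held in every alternative run that tested the gene. Of 979 alternative values of the 42 calls, 843 kept direction and call, 134 kept direction only and 2 changed sign. The 2 were HOXB3 in Mock against Parental with the mean of probe sets (0.05) and HOXB8 in clone II against Mock without _x_at and _s_at probe sets (0.09). Without that class JARID2 in clone II was 0.02 against Mock and 0.09 against Parental, and HOXB-AS3 was 0.19 and 0.09 in the same comparisons and -0.14 between the clones. In each of these the alternative uses another probe set.

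Of all called genes, 65.2, 42.2, 42.2, 65.3, 49.1 and 44.1% were higher as deposited, 54.8, 53.7, 54.6, 59.2, 55.4 and 53.6% after quantile normalization, and 75.2, 23.8, 21.3, 71.7, 41.0 and 31.1% after centring. The replicate numbers do not pair the arrays by this check: 1 of 18 same-numbered pairs correlated above 0.1 and 2 of 12 arrays correlated best with their own number. With a replicate block the counts of called HOX genes were 3, 8, 7, 2, 9 and 8, likewise given without the share of all genes. Having 3 arrays a group and probe sets near the array median limit what could be detected.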
